A study of Mus musculus with 2 samples.

Results

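Hnf4a, Cebpa, Foxa2, Ppara, Nr1i2, Nr1i3, Nr1h4, Nr5a2 and Rxra are 9 transcription factors and nuclear receptors with known roles in hepatocytes. They were taken by their symbols from the gene names of the deposited tables, and all 9 were found among the 31053 genes listed there. They were measured by single-cell RNA sequencing of the liver of C57BL/6 mice, in which 1 library stands for a chow diet and 1 for a NASH diet, each fed for 6.5 weeks. NASH is non-alcoholic steatohepatitis, and that diet was high in fructose, fat and cholesterol. The labels give no genetic change in either group, and the sources used here do not state the number, age or sex of the mice per library. Liver cells were freed by collagenase and separated on 90% and 25% Percoll, each at 100 g and 1000 g, a procedure meant to keep non-parenchymal cells together with hepatocytes of different density.

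Each count is a unique molecular identifier (UMI), 1 captured RNA molecule read from its 3' end. The chow library held 71635757 UMIs over 7359 barcodes and the NASH diet library 39440182 over 5881. After filtering, 2123 chow and 1149 NASH diet barcodes were hepatocyte-like, with a median of 23490 and 19742 UMIs and a median mitochondrial share of 18.0% and 23.1%. All 14 hepatocyte markers were detected in them, Alb at 25215 and 36515 CPM (UMIs of a gene summed over cells, over all UMIs of those cells, on the usual scale). The same markers served to name the class, so their detection is no separate check of it. The class came from other clusters in chow than in the NASH diet library, clusters 0, 1, 4, 5 and 8 being almost wholly chow and clusters 16, 17 and 18 almost wholly NASH diet. Clustering again the cells first named as other types added a cluster of 31 chow and 6 NASH diet barcodes and another of 5 and 73. The libraries shared 69 barcode sequences, 2 of them among hepatocyte-like cells. With 1 library per diet no difference between diets could be tested, and the 95% intervals given here (exact Poisson for levels, exact conditional binomial for ratios, Clopper-Pearson for shares) cover counting error only. All levels are in CPM, and a member was called higher or lower at a 1.5-fold ratio of CPM plus 1.

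Hnf4a, Cebpa and Foxa2 belong to the network of factors that opens liver chromatin and keeps hepatocyte genes active. Hnf4a and the members other than Cebpa and Foxa2 are nuclear receptors, DNA-binding proteins with a pocket for small lipophilic molecules, and some of them, such as Nr1i3 and Nr5a2, can act without a ligand. Ppara responds to fatty acids and drives their oxidation, Nr1i2 (PXR) and Nr1i3 (CAR) respond to drugs and other foreign compounds, Nr1h4 (FXR) senses bile acids, Nr5a2 (LRH-1) acts with it on bile acid and cholesterol genes, and Rxra is the partner that Ppara, Nr1i2, Nr1i3 and Nr1h4 need to bind DNA. The liver lobule is zoned along the blood flow from portal to central vein, and drug metabolism is a pericentral task.

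The promoters of the members were read from RefSeq on the mouse build GRCm38.p6, where all 9 members matched, with 14 promoters in all. Printed are the 250 bases before the start of Nr1i3, the member that differed most by diet and zone, of Nr1i2, its closest relative among the members, and of Nr5a2, the member with matches to 2 different motifs. The Nr1i3 stretch is chr1:171213720-171213969 on the + strand, the Nr1i2 stretch chr16:38294825-38295074 on the - strand and the Nr5a2 stretch chr1:136960449-136960698 on the - strand, and all 3 lie outside annotated genes. Capitals mark matches to a motif, and stretches without capitals held none.
Nr1i3: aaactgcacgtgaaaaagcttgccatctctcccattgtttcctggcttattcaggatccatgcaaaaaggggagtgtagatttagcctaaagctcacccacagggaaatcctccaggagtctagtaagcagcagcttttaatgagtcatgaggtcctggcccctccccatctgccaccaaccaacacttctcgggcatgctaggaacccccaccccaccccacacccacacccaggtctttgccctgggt
Nr1i2: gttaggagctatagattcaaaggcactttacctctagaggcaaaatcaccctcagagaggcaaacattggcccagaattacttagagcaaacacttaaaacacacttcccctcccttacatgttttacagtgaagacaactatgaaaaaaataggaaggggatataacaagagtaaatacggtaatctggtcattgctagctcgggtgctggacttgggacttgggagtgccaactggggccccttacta
Nr5a2: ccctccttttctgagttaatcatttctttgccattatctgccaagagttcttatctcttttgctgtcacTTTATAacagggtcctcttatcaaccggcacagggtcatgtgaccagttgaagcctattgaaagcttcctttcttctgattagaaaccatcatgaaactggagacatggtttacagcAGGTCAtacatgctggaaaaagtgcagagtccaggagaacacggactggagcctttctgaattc
The motifs searched on both strands were the nuclear receptor core AGGTCA, the Hnf4a motif CAAAGTCCA, the forkhead motif TGTTTAC, the C/EBP motif TTGCGCAA and the TATA box TATAAA. Nr5a2 held the TATA box (on the other strand) 181 bases and AGGTCA 64 bases before its start. Over all 32851 promoters of that length, 14.0% held AGGTCA, 0.384% CAAAGTCCA, 3.17% TGTTTAC, 0.164% TTGCGCAA and 12.4% TATAAA. Of the other members, Cebpa held the TATA box 30 bases and another promoter of Foxa2 held it 208 bases before the start, Nr1h4 AGGTCA at 214 bases, and a second promoter of Rxra AGGTCA at 87 and 48 bases. The GC content was 53.2% for Nr1i3, 44% for Nr1i2 and 43.2% for Nr5a2, against a median of 52.4% over all promoters. A match describes letters only and does not show binding.

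The diets were compared first over all hepatocyte-like cells. Nr1i3 and Ppara were higher in the NASH diet library and the other 7 members were within 1.5-fold. Of the 10547 genes at 1 CPM or more in either library, 10.2% were called higher and 5% lower, with a median log2 ratio of 0.13. The members' median log2 ratio was 0.11.

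Nr1i3 (ENSMUSG00000005677, chromosome 1, 171213970 to 171220701, + strand, in the GENCODE M21 annotation of GRCm38) had 2088 chow and 3154 NASH diet UMIs, or 43.9 (42.1 to 45.8) and 138 (134 to 143) CPM. The ratio was 3.15-fold (2.98 to 3.33), a log2 ratio of 1.63, or 1.498 relative to the median of all genes. The intervals of the libraries lay far apart. An exon of Nr1i3 overlaps Tomm40l on the opposite strand, and the sources used here do not say whether counting used the strand. Tomm40l had 7.11 and 7.50 CPM.

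Ppara (ENSMUSG00000022383, chromosome 15, 85734983 to 85802819, + strand) had 1552 and 1946 UMIs, or 32.6 (31.0 to 34.3) and 85.4 (81.6 to 89.2) CPM. The ratio was 2.61-fold (2.44 to 2.80), a log2 ratio of 1.36, or 1.22 relative to all genes. No single cell held over 0.565% of its UMIs.

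Hnf4a (ENSMUSG00000017950, chromosome 2, 163506808 to 163572910, + strand) lay at the other end. It had 230 CPM (225 to 234; 10912 UMIs) in the chow library and 162 (156 to 167; 3686 UMIs) under the NASH diet, 0.704-fold (0.678 to 0.731). This log2 ratio of -0.50 did not reach 1.5-fold, but relative to the median of all genes it was -0.64 and did. Nr5a2 (ENSMUSG00000026398, chromosome 1, 136842571 to 136960448, - strand) was next, with 61.3 (59.1 to 63.6) and 48.4 (45.6 to 51.3) CPM, 0.789-fold (0.736 to 0.846), within the limit on either scale.

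The remaining 5 members had closely similar levels in the 2 libraries. Cebpa (ENSMUSG00000034957, chromosome 7, 35119293 to 35121928, + strand) had 249.5 and 273 CPM, 1.09-fold (1.06 to 1.13). Rxra (ENSMUSG00000015846, chromosome 2, 27676440 to 27762957, + strand), the shared partner, had 141 and 153, 1.08-fold (1.04 to 1.13). Nr1h4 (ENSMUSG00000047638, chromosome 10, 89454234 to 89533585, - strand) had 72.6 and 78.2, 1.08-fold (1.02 to 1.14). These 3 intervals exclude 1 by little, and relative to the median of all genes their log2 ratios were between -0.03 and -0.01. Foxa2 (ENSMUSG00000037025, chromosome 2, 148042877 to 148046969, - strand) had 38.8 and 39.0, 1.01-fold (0.927 to 1.09). Nr1i2 (ENSMUSG00000022809, chromosome 16, 38248323 to 38294824, - strand) had 27.0 and 30.4, 1.13-fold (1.02 to 1.24).

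**Figure D1:**
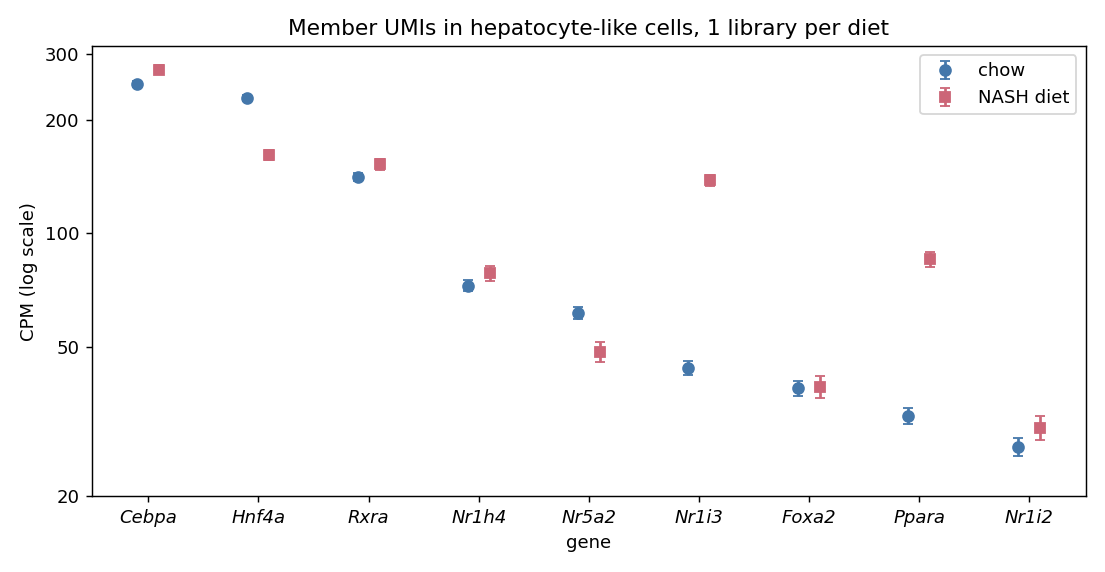
CPM (log scale) of the 9 members in summed hepatocyte-like cells of the chow (circles) and NASH diet (squares) libraries, with exact 95% Poisson intervals that cover counting error only. Nr1i3 (43.9 against 138) and Ppara (32.6 against 85.4) stand apart upward, and Hnf4a (230 against 162) downward.

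The share of cells with a UMI followed the levels once all cells were thinned to 5000 UMIs, a depth that 261 cells of chow and 90 of the NASH diet did not reach. Ppara was seen in 14.7% (13.1 to 16.4) of the chow cells and in 32.9% (30.04 to 35.8) of those from the NASH diet, against 45.9% and 70.2% before thinning. Nr1i3 was seen in 17.7% (16.0 to 19.5) and 31.3% (28.5 to 34.1), against 42.6% and 60.5%. Hnf4a was seen in 66.0% (63.8 to 68.2) and 53.3% (50.2 to 56.3), although its shares before thinning, 87.3% and 85.4%, were close. Nr5a2 was seen in 25.7% (23.7 to 27.7) and 20.2% (17.8 to 22.8). Thinned to 1000 UMIs, the share of hepatocyte-like cells with Ppara was 3.39% for chow and 9.62% for the NASH diet. In endothelial-like cells, which had a median of 5369 and 5674.5 UMIs before thinning, it was seen in 0 of 43 and 0 of 34, which allows shares of up to 6.98% and 8.82% at a floor of 3 cells, with Clopper-Pearson upper bounds of 8.22% and 10.3%. At that depth neither share in hepatocyte-like cells can be told from this background.

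Levels of Nr1i3, Ppara and Hnf4a were also read in barcodes that the hepatocyte-like class left out. Between 30% and 80% mitochondrial UMIs, Nr1i3 had 47.6 and 156 CPM, Ppara 23.6 and 62.8, and Hnf4a 139 and 107. In the kept low-UMI barcodes left unnamed (1795 of chow, 1052 of the NASH diet), Nr1i3 had 48.2 and 95.8, Ppara 19.1 and 48.9, and Hnf4a 155 and 141, a ratio of 0.910-fold (0.748 to 1.11) that spans 1. Above 80% mitochondrial UMIs Nr1i3 had 2.24 and 39.9, Ppara 1.26 and 6.72, and Hnf4a 12.5 and 16.5. Every member was higher in the NASH diet library there, and Hnf4a had the smallest ratio, 1.32-fold (1.04 to 1.67). Most UMIs of these barcodes are mitochondrial by definition, and CPM divides by all UMIs. The share of all genes higher there is not given here, so the common direction is not read as a trait of the members. Over all deposited barcodes, Nr1i3 was 3.31-fold (3.15 to 3.47), Ppara 2.49-fold (2.34 to 2.65) and Hnf4a 0.682-fold (0.659 to 0.705) its chow level. The size for Nr1i3 depended on which barcodes were summed. With a mitochondrial limit of 20% its log2 ratio was 2.59, and as the mean over cells of each cell's level it was 2.73. At a limit of 50% it was 0.32 and no longer past 1.5-fold; there the class held 922 NASH diet cells, 2 of them rich in nuclear RNA, and 3298 barcodes of that library, at 235 Nr1i3 CPM, were left unnamed.

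Position in the lobule was read with a zone score, the log2 ratio of summed UMIs of 18 pericentral genes to those of 20 periportal genes, none of them a member. The cells of each library were split into 3 terciles of that score, which are ranges and not cell types, and 371 chow (17.5%) and 192 NASH diet cells (16.7%) lay within 0.25 of a limit. Nr1i3 was far higher at the pericentral end in both libraries, and no other member reached 1.5-fold. Between the outer terciles, 12.8% of 10447 genes were called higher at the pericentral end in chow and 5.51% lower, with a median log2 ratio of 0.15, and 21.3% and 5.06% of 10597 genes in the NASH diet library, with a median of 0.28.

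In chow, Nr1i3 had 10.3 (8.89 to 11.9) CPM in the periportal, 42.2 (39.0 to 45.7) in the middle and 88.5 (83.8 to 93.5) in the pericentral tercile. The outer terciles differed 8.59-fold (7.37 to 10.1), rank 47 of all ratios. In the NASH diet library it had 26.9 (23.3 to 30.8), 80.2 (73.7 to 87.1) and 294 (282 to 306), a ratio of 10.9-fold (9.48 to 12.7) and rank 64. The order of the terciles was the same in both libraries and no neighbouring intervals met. Tomm40l, the gene overlapping it, ran the other way, from 8.79 periportal to 4.43 pericentral in chow and from 10.0 to 4.06 in the NASH diet library.

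Among the other members Ppara had the steepest slope in chow, from 26.8 (24.5 to 29.3) through 35.4 to 37.3 (34.2 to 40.6) CPM, 1.39-fold (1.23 to 1.58). In the NASH diet library it ran from 72.6 (66.7 to 78.9) through 81.1 to 101 (94.2 to 108), again 1.39-fold (1.25 to 1.55). Nr1i2 had 25.5 periportal and 28.6 pericentral in chow, 1.12-fold (0.978 to 1.28), and 26.5 and 39.7 in the NASH diet library, 1.498-fold (1.25 to 1.79), just under the limit with the added count (log2 0.57). Foxa2 had 37.8 in each outer tercile of chow and 31.6 and 44.7 in the NASH diet library, 1.42-fold (1.20 to 1.67). The ratio for Rxra was 1.21-fold (1.14 to 1.28) in chow and 1.33-fold (1.22 to 1.44) in the NASH diet library. Hnf4a, Cebpa, Nr1h4 and Nr5a2 lay between 0.935-fold and 1.22-fold in the 2 libraries.

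The diet difference was present at each position. Ppara was 2.71-fold (2.40 to 3.07) its chow level in the periportal, 2.29-fold (2.03 to 2.59) in the middle and 2.71-fold (2.42 to 3.02) in the pericentral tercile, and these intervals overlap. Nr1i3 was 2.61-fold (2.13 to 3.19), 1.90-fold (1.69 to 2.13) and 3.32-fold (3.0997 to 3.55). In cells with a middle share of nuclear RNA (0.02% to 1%, described further on) it was 2.49-fold (1.97 to 3.15), 1.72-fold (1.48 to 1.998) and 2.11-fold (1.96 to 2.28). The pericentral value was thus smaller and no longer above the periportal one. Those terciles were drawn anew within that band, so their limits differed as well as their cells. Hnf4a was 0.692-fold (0.648 to 0.738), 0.733-fold (0.685 to 0.783) and 0.685-fold (0.642 to 0.730). The terciles were taken within a library, so they hold the same share of cells and need not mark the same place.

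**Figure D2:**
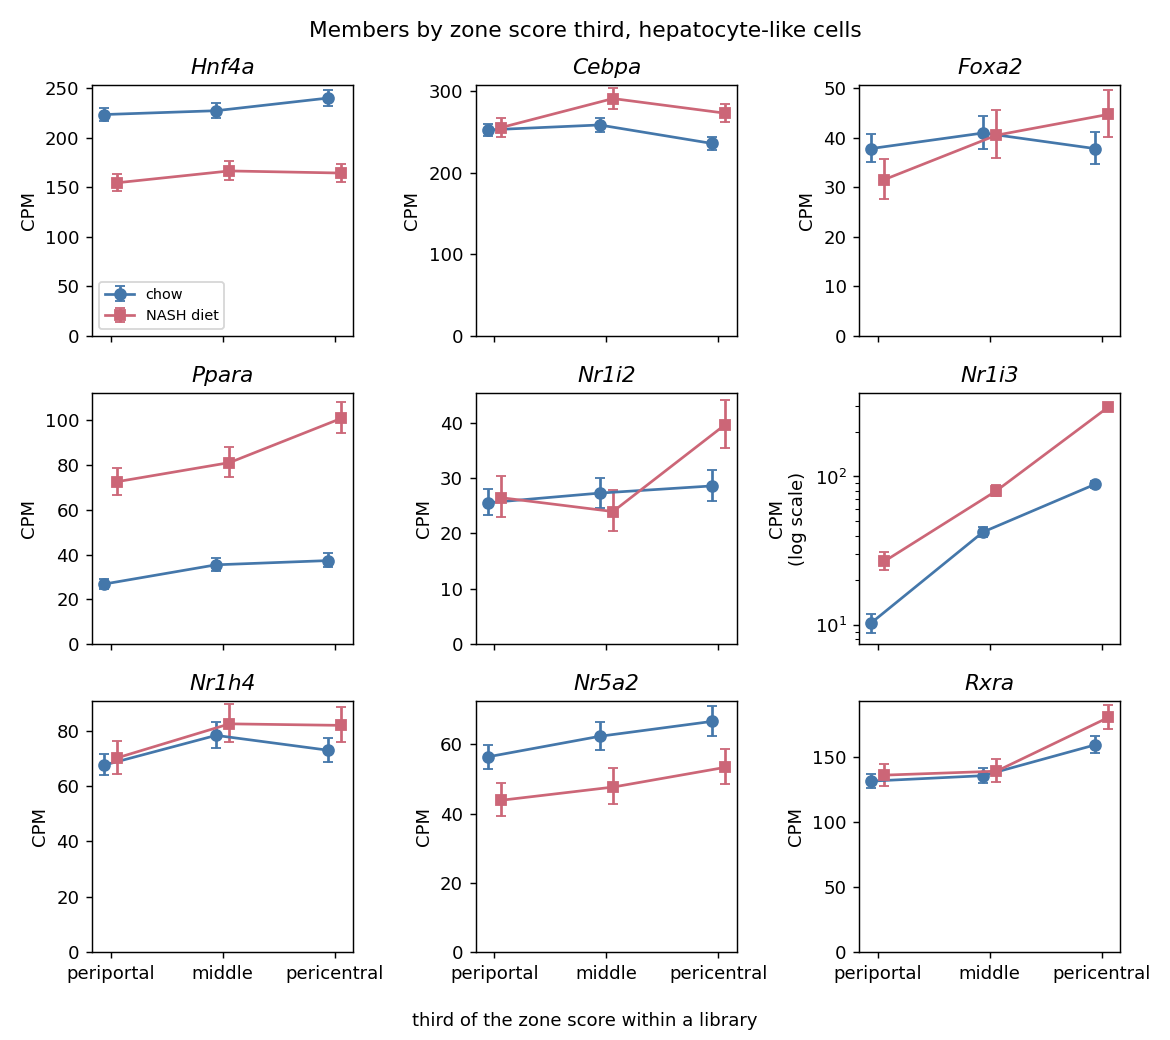
CPM of each member by tercile of the zone score, from periportal to pericentral, in chow (circles) and NASH diet (squares) hepatocyte-like cells, with exact 95% Poisson intervals; the Nr1i3 axis is on a log scale and the others start at 0. Nr1i3 climbs from 10.3 to 88.5 in chow and from 26.9 to 294 in the NASH diet library, while Hnf4a stays flat with its libraries apart.

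Nuclear RNA was read as the share of nuclear-encoded UMIs from Malat1 and Neat1, long noncoding RNAs kept in the nucleus. Barcodes were put in 3 bands, nuclear-RNA-poor (under 0.02%; 386 chow and 167 NASH diet cells), middle (1714 and 905) and nuclear-RNA-rich (1% or more; 23 and 77). Bands were drawn after the values had been seen. Between 0.01% and 0.04% lay 137 cells, and between 0.5% and 2% lay 35. The outer bands were shallow, with medians of 4441 and 9818 UMIs in the poor band and 3698 and 4220 in the rich band, against 26097 and 21273 in the middle band.

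Nr1i3 was concentrated in the nuclear-RNA-rich barcodes of the NASH diet library. It had 84.2 (186 UMIs) CPM in the poor, 95.3 (1925 UMIs) in the middle and 2692 (1043 UMIs) in the rich band, so 77 of 1149 cells held 33.1% of its UMIs. In those 77 barcodes 94.8% had a UMI of it, with a median of 9 and a highest value of 65 per cell, against a median of 1 and a highest value of 23 in the middle band. The rich band was 28.3-fold (26.2 to 30.5) above the middle band, rank 57 of 12318 genes. In chow the same bands had 55.3 (155 UMIs), 42.4 (1893 UMIs) and 312 (40 UMIs), and the rich band was 7.34-fold (5.23 to 10.0) the middle band. The overlapping gene Tomm40l also stood higher in the rich band of the NASH diet library, at 41.3 CPM (16 UMIs) against 6.58 in the middle band, and at 7.79 (1 UMI) against 7.08 in chow. Its part in the Nr1i3 counts was not tested. The 23 chow barcodes left wide intervals for the others, such as 2.60-fold (1.19 to 4.95) for Nr1i2 and 0.501-fold (0.280 to 0.827) for Hnf4a.

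In the NASH diet library 4 members were called higher in the rich than in the middle band and 0 lower, where 64.3% of all 12318 genes tested were called higher and 13.4% lower. The median log2 ratio of all genes was 1.16, and the members' share called higher was below that of all genes. In the rich band 1 UMI was 2.58 CPM, so a gene could be tested through that band alone. This can raise both the share called higher and the median. Ppara had 297 against 84.4 CPM, 3.52-fold (2.89 to 4.25), Nr1i2 157 against 28.4, 5.54-fold (4.18 to 7.22), and Nr1h4 176 against 73.9, 2.38-fold (1.83 to 3.03). Relative to the median of all genes the log2 ratios were 3.65 for Nr1i3, 1.27 for Nr1i2, 0.64 for Ppara and 0.08 for Nr1h4. On that scale Hnf4a (-0.89), Cebpa (-0.86), Foxa2 (-1.04), Nr5a2 (-0.63) and Rxra (-1.10) were past 1.5-fold in the other direction. These calls depend on that median, and the plain levels of these members were within 1.5-fold.

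Hepatocyte markers were lower in the rich barcodes of the NASH diet library. Their 14 hepatocyte markers summed to 26420 CPM against 86847 in the middle band (84490 against 90181 in chow), and Alb stood at 6979 against 40075. Of the 77, 73 fell in 1 cluster, in which Nr1i3 itself was a leading gene, so its level there is a description of that cluster as well. That cluster held 5 chow barcodes. Its barcodes had first fallen in clusters named as other cell types and became hepatocyte-like when those cells were clustered again. Markers of several other cell types were higher in the rich band, and 3 types had the largest sums. Erythroid markers (6 of 8 detected) summed to 8461 against 62.9 CPM. Cholangiocyte markers (7 of 8) summed to 3312 against 57.3, of which Spp1 alone was 2777 and 34.7. They were also higher in the rich band of chow, at 1293 against 161, with Spp1 at 1090 and 125. Neutrophil markers (4 of 8) summed to 1492 against 272, and of the 1492 G0s2 was 914, S100a8 307 and S100a9 268. Smaller sums were also higher, at 129 against 14.2 for cycling cell and 106 against 66.9 for endothelial markers. The median log2 ratio of all genes between these bands was 1.16, and the endothelial sum rose by less than that. Phagocyte markers had 56.8 against 3.86 and mesenchymal markers 28.4 against 2.18. Plasma cell (108 against 165) and plasmacytoid dendritic cell markers (173 against 194) were lower, and T or NK, B and mast cell markers were at 0. Without the 2 barcodes in which cholangiocyte or erythroid markers made up 1% or more of UMIs, an exclusion chosen after the data had been seen, Nr1i3 stood at 3185 (2995 to 3385), Nr1i2 at 183, Nr1h4 at 208 and Ppara at 352 CPM, and Nr5a2 moved from 1.45-fold to 1.53-fold the middle band. The part of these cell types' markers in the levels of the members was not tested.

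Without the rich barcodes the diet difference of Nr1i3 was smaller. In the middle band alone it had 42.4 (40.5 to 44.4) CPM in chow against 95.3 (91.1 to 99.6), 2.25-fold (2.11 to 2.39), against 3.15-fold over all hepatocyte-like cells. Ppara in that band was 2.55-fold (2.38 to 2.74) and Hnf4a 0.698-fold (0.671 to 0.726), close to their values over all cells. In the poor band Nr1i3 was 1.52-fold (1.22 to 1.90) and Ppara 2.13-fold (1.59 to 2.88). In the rich band they were 8.64-fold (6.30 to 12.2) and 12.7-fold (4.24 to 62.5), the last from 3 chow UMIs. There 6 members were called higher and 0 lower, but relative to the median of all genes 2 were higher and 3 lower. The share of all genes called in this comparison is not given here, so these counts are not read as a result about the members. The 2 rich bands held unlike barcodes. Of the chow ones 5 of 23 lay in 1 cluster, which held 73 of the 77 NASH diet ones. Their hepatocyte markers summed to 84490 and 26420 CPM. The part of this unlikeness in the rich band ratios was not tested. The zone slope of Nr1i3 was also present in terciles drawn anew within the middle band. It had 9.70 periportal and 88.1 pericentral in chow, 9.08-fold (7.66 to 10.8), and 24.2 and 186 in the NASH diet library, 7.70-fold (6.50 to 9.19). Of the 77 rich NASH diet barcodes 49 were in the pericentral, 27 in the middle and 1 in the periportal tercile.

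In the nuclear-RNA-poor band Foxa2, Nr5a2 and Rxra were called lower than in the middle band in each library, 3 of 9 members, where 33.8% of 10593 genes were called lower and 27% higher in chow and 33.3% and 26.9% of 10514 genes in the NASH diet library, so the members' share is near the background. Relative to the median of all genes, at -0.16 and -0.14, only Foxa2 and Nr5a2 in chow were lower, and Nr1h4 in the NASH diet library was higher. Foxa2 had 22.5 against 39.8 CPM in chow, 0.565-fold (0.432 to 0.726), and 25.8 against 40.3 in the NASH diet library, 0.640-fold (0.480 to 0.837). Nr5a2 had 32.1 against 63.2, 0.508-fold (0.407 to 0.627), and 31.2 against 49.8, 0.627-fold (0.484 to 0.801). Rxra had 93.1 against 144, 0.645-fold (0.568 to 0.730), and 101 against 158, 0.641-fold (0.558 to 0.735). Nr1h4 pointed the other way in each library, 1.31-fold (1.15 to 1.48) and 1.37-fold (1.18 to 1.57), without reaching 1.5-fold. None of these ratios is corrected for the lower mitochondrial share of the poor band, and its part in them was not tested.

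With 3 common terciles of the nuclear RNA share (limits at 0.0890% and 0.184%), Nr1i3 was the only member past 1.5-fold, and in opposite directions. In chow it had 55.8 CPM in the low and 33.5 in the high tercile, 0.600-fold (0.533 to 0.675), where 5.41% of 10428 genes were called higher and 11.4% lower. The high tercile of chow was also the more periportal, with a median of 0.103% of UMIs from the pericentral genes against 0.471% in the low tercile. The same held in the NASH diet library, with 0.110% against 0.436%. There Nr1i3 had 103 in the low and 204 in the high tercile, 1.98-fold (1.82 to 2.17), where 17.6% of 10853 genes were called higher and 11.7% lower. Without the rich barcodes that log2 ratio of 0.98 became -0.45, the direction seen in chow. Whether the diets differ in this relation was not tested.

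**Figure D3:**
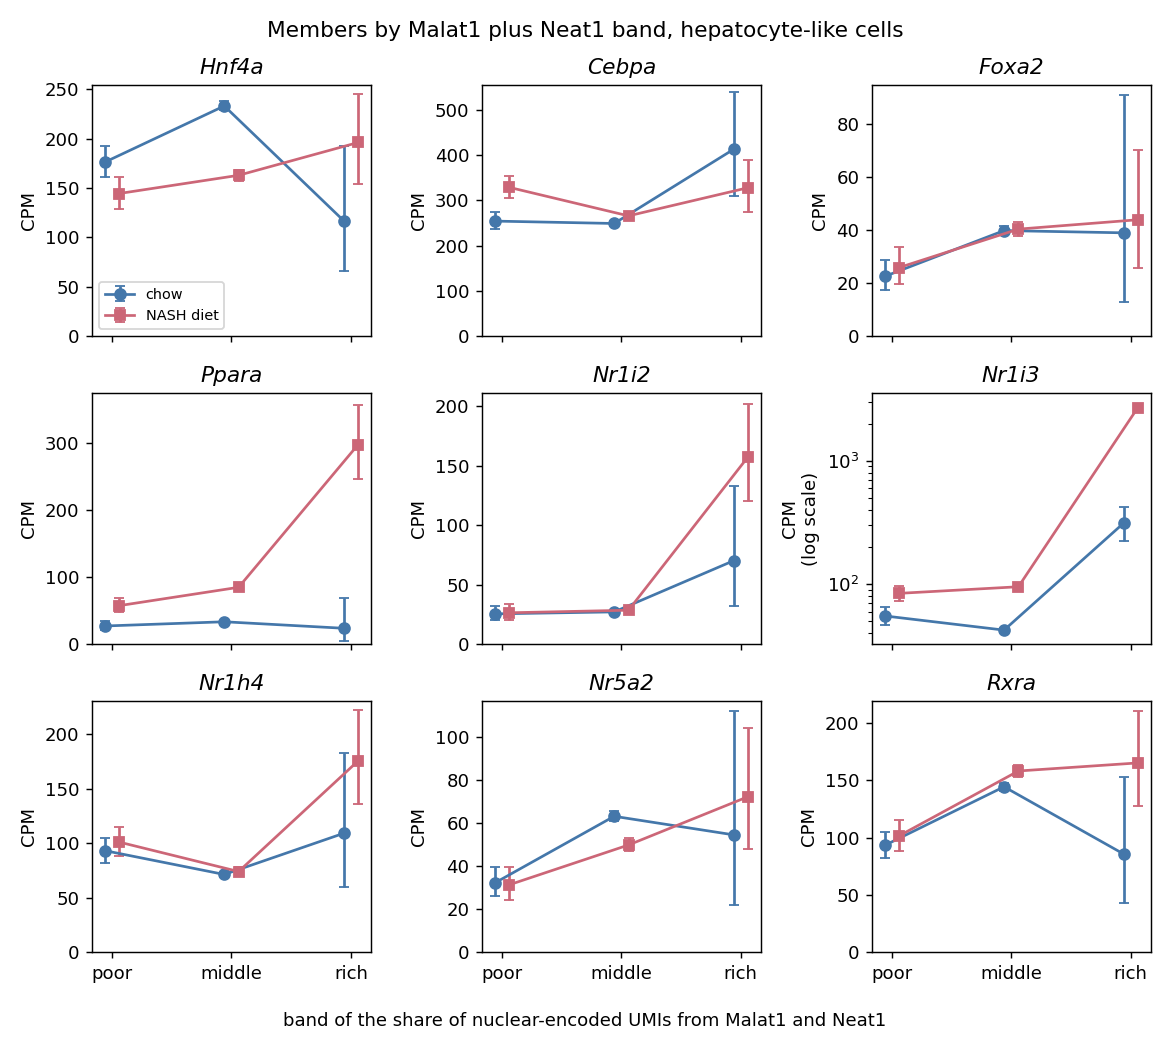
CPM of each member in the nuclear-RNA-poor, middle and nuclear-RNA-rich bands of chow (circles) and NASH diet (squares) hepatocyte-like cells, with exact 95% Poisson intervals; the Nr1i3 axis is on a log scale and the others start at 0. In the rich band of the NASH diet library Nr1i3 reaches 2692 and Ppara 297, and the chow rich band, with 23 cells, has wide intervals.

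The members were then read in the other cells, where RNA released from broken hepatocytes also enters droplets. The count that such free RNA would give was scaled from 15 abundant hepatocyte genes, and a member was taken as above it when the lower bound of its Poisson interval exceeded that count. Rxra, Nr1h4, Nr5a2 and Cebpa were above free RNA in at least 1 class of each library, while Foxa2, Ppara, Nr1i2 and Nr1i3 were above it in none of the 4 classes with 25 or more cells over both libraries. The classes held 43 chow and 34 NASH diet endothelial-like cells, 47 and 12 mononuclear phagocyte-like, 13 and 14 mesenchymal-like, and 6 and 19 T or NK cell-like.

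Rxra had 197 (156 to 245) CPM in chow phagocyte-like cells and 165 (88.1 to 283) in those of the NASH diet library. In chow that interval lies above the hepatocyte-like level of 141 (138 to 145), and in the NASH diet library it spans the level of 153. In mesenchymal-like cells it had 152 (97.4 to 226) and 151 (108 to 205), and in endothelial-like cells 48.9 (25.3 to 85.4) and 90.2 (55.9 to 138), below the hepatocyte-like level in each library. The phagocyte-like and mesenchymal-like intervals overlapped, and the T or NK cell-like cells had 1 UMI in each library.

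Nr1h4 had 69.7 (34.8 to 125) and 99.3 (65.5 to 145) CPM in mesenchymal-like cells, from 11 and 27 UMIs in 6 of 13 and 10 of 14 cells, where free RNA would give 1.05 and 1.12. These intervals span the hepatocyte-like levels of 72.6 and 78.2. In the 3 other classes its interval included the free RNA count.

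Nr5a2 had 114 (75.8 to 165) CPM in chow endothelial-like cells, from 28 UMIs in 16 of 43 cells, and 51.6 (26.6 to 90.1) in those of the NASH diet library, from 12 UMIs in 11 of 34 cells. Free RNA would give 1.52 and 0.830 UMIs. The chow interval lies above the hepatocyte-like level of 61.3 and the NASH diet interval spans its level of 48.4. In mesenchymal-like cells it had 31.7 (10.3 to 73.9) and 18.4 (5.97 to 42.9), from 5 UMIs in each library.

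Cebpa had 97.2 (69.1 to 133) CPM in chow phagocyte-like cells, 2.44 times the free RNA count, and 53.0 (28.2 to 90.6) and 81.6 (49.1 to 127) in endothelial-like cells. The chow endothelial-like value rests on 13 UMIs, 38.5% of them in 1 cell, and its lower bound of 6.92 UMIs is close to the 6.19 of free RNA. In mesenchymal-like cells of the NASH diet library it had 33.1 (15.1 to 62.9), from 9 UMIs against 3.91. All of these were below its hepatocyte-like levels of 249.5 and 273. Hnf4a was above free RNA only in chow endothelial-like cells, with 14 UMIs against 5.70, of which 42.9% lay in 1 cell. In chow phagocyte-like cells it was below the estimate, with 5 UMIs (1.62 to 11.7) against 14.7. The estimate was thus too high for Hnf4a there, and a member not above it is not shown to be absent from a class. Ppara had 0 UMIs in endothelial-like and phagocyte-like cells of each library, which allows up to 12.2 and 12.9 CPM in the endothelial-like and 7.48 and 38.2 in the phagocyte-like cells at a floor of 3 UMIs. The upper Poisson bounds there were 15.04 and 15.85, and 9.19 and 47.0 CPM. Nr1i3 had between 1 and 3 UMIs in each class and library except the T or NK cell-like cells of chow, where it had 0.

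**Figure D4:**
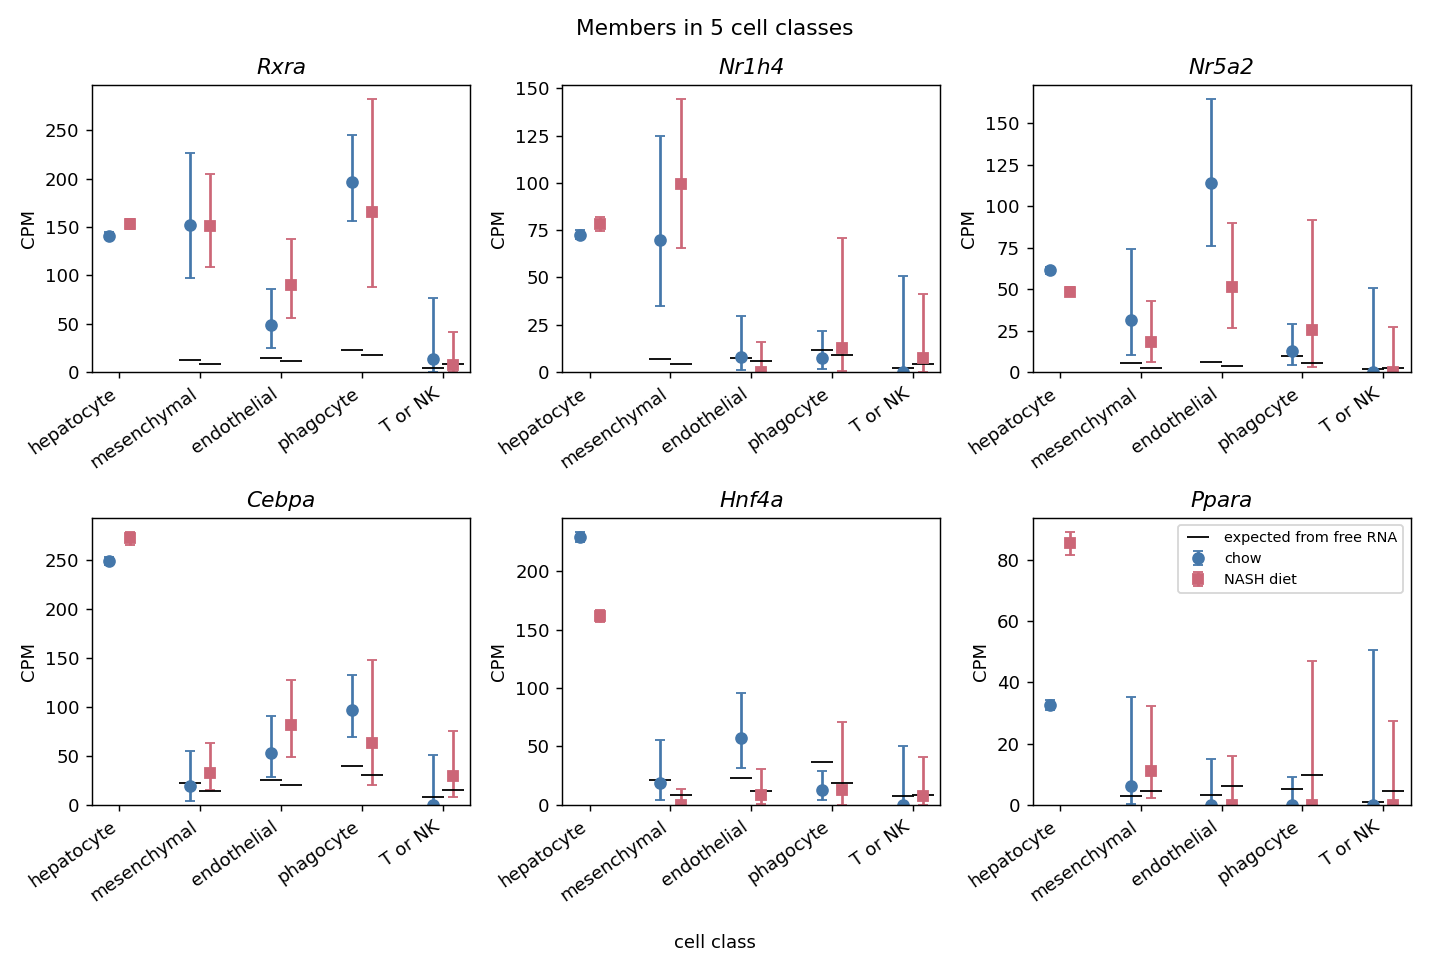
CPM of 6 members in hepatocyte-like cells and 4 other classes of the chow (circles) and NASH diet (squares) libraries, with exact 95% Poisson intervals and, as black bars, the level that free hepatocyte RNA would give. Rxra in phagocyte-like and mesenchymal-like cells, Nr1h4 in mesenchymal-like cells and Nr5a2 in endothelial-like cells lie well above the bars.

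Genes around the members were compared between the diets with 7 lists, in the same hepatocyte-like cells and beside the 10.2% higher and 5% lower of all genes. Among other hepatocyte transcription factors 5 of 29 tested genes were higher and 4 lower, with a median log2 ratio of 0.13. Relative to the median of all genes the split was 4 and 5. Srebf1, the master regulator of fatty acid synthesis, had 40.0 and 76.5 CPM, Nfe2l2, which drives antioxidant genes, 23.8 and 42.8, Tbx3 20.05 and 36.1, and Foxa1 11.3 and 19.8. Srebf2, which drives cholesterol synthesis, had 36.6 and 14.3, Atf5 453 and 234, Cebpb 375 and 210, and Foxa3 112 and 66.3. Relatives of the same family as a member thus lay on either side, with Foxa1 above, Foxa2 level and Foxa3 below.

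Among other nuclear receptors 6 of 26 tested were higher and 2 lower (5 and 3 relative to all genes), with a median of 0.20. Esrra, a regulator of mitochondrial genes, had 8.06 and 22.1 CPM, Nr2f2 25.7 and 60.0, and Pparg 3.30 and 6.75. Esr1, the estrogen receptor, had 37.9 and 19.5 and Nr1d1, a clock repressor, 53.5 and 30.6. Nr0b2 (SHP), the repressor that Nr1h4 induces, had 37.4 and 28.7. Of 22 coregulators 1 was higher and 1 lower, with a median of 0.07, namely Ppargc1b at 2.40 and 5.18 and Lpin1 at 102 and 45.1.

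The targets of Ppara were the list most set apart, with 28 of 34 tested genes higher, 0 lower and a median log2 ratio of 0.95. Cyp4a10, a fatty acid omega-hydroxylase, had 20.8 and 520.5 CPM, 25.0-fold, and Cyp4a14 16.1 and 259. Acot1, a cytosolic acyl-CoA thioesterase, had 4.35 and 70.3, and Acaa1b, a peroxisomal thiolase, 166 and 1460. The lowest ratios of the list were those of Fgf21, at 7.30 and 5.61, and Angptl4, at 70.3 and 69.0, both within 1.5-fold. The Cyp4a, Acot and Acaa1 genes have near-identical relatives, so how reads were divided among them is uncertain.

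Of the targets of Nr1i2 and Nr1i3, 14 of 25 tested were higher and 0 lower, with a median of 0.66. Cyp2a5 had 12.2 and 122 CPM, Por, the reductase that feeds electrons to cytochromes P450, 78.3 and 274, Slco1a4 7.47 and 19.4 and Alas1, the first enzyme of heme synthesis, 86.8 and 189. Cyp3a11, the textbook Nr1i2 target, had 993 and 1211, and Cyp2b9 had no UMI in the chow library and 37 UMIs in the other. Cyp3a13 was the lowest of the list, at 197 and 140. Cyp3a11 and Cyp2b9 are named outside the rule for named genes, after their values were seen.

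Of the targets of Nr1h4 and Nr5a2, 7 of 21 tested were higher and 0 lower (5 and 1 relative to all genes), with a median of 0.42. Cyp7a1, the rate-limiting enzyme of bile acid synthesis, had 20.8 and 127 CPM, and Abcg5 and Abcg8, which form the sterol exporter, had 13.5 and 49.5 and 24.5 and 55.2. Abcb11, the bile salt export pump, had 150 and 144. Of the targets of Hnf4a, Cebpa and Foxa2, 9 of 38 were higher and 7 lower, with a median of 0.05. Relative to all genes that split turned to 3 and 9. Igfbp1 had 201 and 20.1, Serpina1e 13642 and 2728, Fgb, a fibrinogen chain, 9432 and 3171, and Tat 1018 and 521. On the other side Gys2, glycogen synthase of the liver, had 33.4 and 127. Serpina1 genes are near copies of each other and can share reads.

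**Figure D5:**
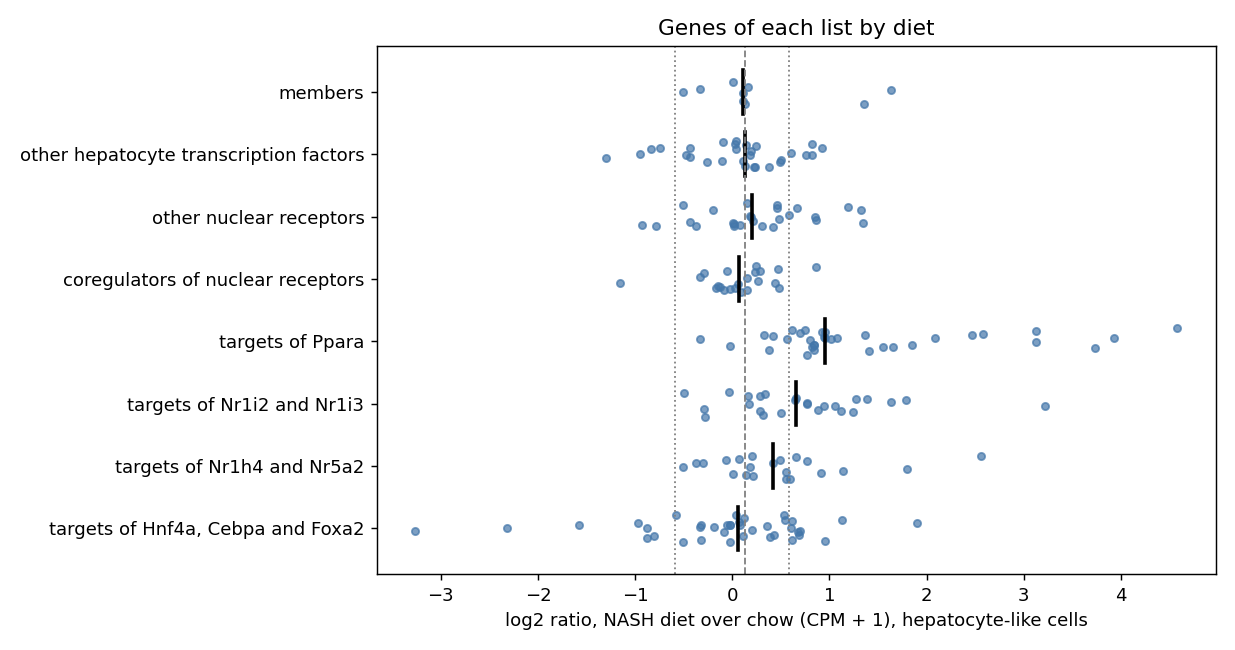
Log2 ratio of NASH diet over chow in hepatocyte-like cells for each tested gene of 8 lists (points) with the list's median (black bar); the dashed line is the median of all genes, 0.13, and the dotted lines mark 1.5-fold. The targets of Ppara, with a median of 0.95, lie mostly to the right, and those of Hnf4a, Cebpa and Foxa2, with a median of 0.05, spread to both sides.

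Genes whose pattern was most like each member were named over 27 sums of a cluster within a library, 15 of them hepatocyte-like, among 7575 genes. Pearson correlations of log2 levels describe these sums only, which differ mainly between hepatocyte-like and other clusters and share library and depth. They were 0.95 between Hnf4a and Cyp2d9, 0.95 between Cebpa and Gss, 0.95 between Foxa2 and Proc, 0.94 between Ppara and Cyp2u1, and 0.97 between Nr1i2 and Arhgef26. For the other members they were 0.88 between Nr1i3 and Acbd5, 0.88 between Nr1h4 and Ndrg2, 0.92 between Nr5a2 and Evi5, and 0.89 between Rxra and Rhobtb1.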

How the data were processed

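The deposited UMI counts per gene and barcode of each library's own matrix were used. Per the labels' protocols the libraries came from a 10x Genomics 3' kit, and per the submitters' processing notes the authors used Cell Ranger 3.1.0, Seurat and the build mm10; the matrix header names software version 3.0.2. Barcodes with 200 genes, 500 UMIs and at most 30% mitochondrial UMIs were kept. Scrublet's own threshold called 0 doublets, so 433 chow and 277 NASH diet barcodes, of all deposited ones, were marked by rank of its score at 0.8% per 1000 barcodes and left out. Cells were clustered in scanpy 1.11.5 (2000 variable genes, 30 components, 15 neighbours, Leiden resolution 1.0) and named by markers in 3 steps whose thresholds were set after the clusters had been seen. Low-UMI clusters stayed unnamed.

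UMIs were summed over cells and divided by their total. Log2 ratios used a pseudocount of 1 CPM, over genes at 1 CPM or more in either library. The ratio and its calls were tested on Poisson counts simulated from the chow profile. That simulation held no variation between cells, mice or libraries, so it checks the calculation only. Each diet was 1 library, so no p-value was computed. From each list the text could name the 4 highest and 4 lowest ratios among genes at 5 CPM or more. A few of these genes are not reported here. Alternatives changed the mitochondrial limit, pseudocount, scaling, clustering, doublets, depth window and nuclear RNA measure. Free RNA was scaled from the genes of the hepatocyte background list. Gene positions came from GENCODE M21 (30934 of 31053 IDs matched). The members and lists were chosen with earlier results of these data known.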

Additional observations from a re-analysis of the deposited data

How the results depend on the processing

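No paired analysis was possible because each diet was 1 library, and for the same reason no replicate could be left out. Over 15 alternatives the log2 diet ratio ranged from 0.32 to 2.73 for Nr1i3, from 1.16 to 1.57 for Ppara and from -0.64 to -0.44 for Hnf4a. With a mitochondrial limit of 50%, 1 member was higher, Ppara, and relative to the median of all genes 1 was lower, Hnf4a. Across the terciles of the nuclear RNA share in the NASH diet library, 0 members were higher with Gm42418 added to the nuclear genes, in cells of 10000 to 40000 UMIs, and without the nuclear-RNA-rich barcodes; the log2 ratio of Nr1i3 turned to -0.30 in that depth window and to -0.45 without those barcodes. With a pseudocount of 10 CPM, 3 other transcription factors, 3 other nuclear receptors, 0 coregulators and 9 targets of Nr1i2 and Nr1i3 were higher. Relative to the median of all genes, 1 target of Nr1i2 and Nr1i3 and 1 of Nr1h4 and Nr5a2 were lower, and 3 targets of Hnf4a, Cebpa and Foxa2 were higher. Without the nuclear-RNA-rich barcodes, 1 target of Nr1i2 and Nr1i3 was lower. The shares of all genes called under these alternatives are not given here, and the cause of these shifts was not tested. The 23 nuclear-RNA-rich chow barcodes and the small non-hepatocyte classes hold few cells and UMIs, and their intervals are wide.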
